A study of Homo sapiens with 52 samples.

Results

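The collagen and laminin chain genes were read as a group across 2 human endothelial cell lines, their responses to cytokines, and 10 gene knockdowns. Members were chosen by symbol: COL, a number, A and a number, or LAMA, LAMB or LAMC and a number. Of 43290 symbols in the whole series, 55 are read here, and 26 of them had at least 1 TPM (transcripts per 1000000, a share of the library corrected for transcript length) in at least 3 libraries of a block. These 26 members were 18 collagen and 8 laminin chains. The parental block held 22 of them. All 26 were held by the block of CRISPR interference (CRISPRi) libraries, with COL1A1, COL7A1, COL8A2 and LAMA2 kept there alone.

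TeloHAEC is a line of human aortic endothelium kept dividing by telomerase. Eahy926 is a hybrid line used as an endothelial model. TeloHAEC were grown in an endothelial medium that contains VEGF and Eahy926 in DMEM with 10% fetal bovine serum, so the lines differ in medium as well as in origin. Each line had 3 libraries, numbered 1.1 to 1.3, in each of 4 groups: untreated control, 10 ng/ml IL-1β for 24 h, 10 ng/ml TNF-α for 24 h, and a VEGF group. The VEGF group was labelled as medium lacking VEGF for TeloHAEC and as medium with VEGF added for Eahy926, so these groups are different treatments. Untreated libraries numbered 0.1 and 0.2 of each line stood outside the fit and are given apart. The knockdown libraries came from a pooled, sorted TeloHAEC line with doxycycline-inducible KRAB-dCas9, a fusion that represses the promoter a guide RNA points it to. All of them, controls included, had 2 ug/ml doxycycline for 5 days. Each carried 1 guide, with 2 guides for each of CCM2, PDCD10, ITGB1BP1, MESDC1 (listed under the symbol TLNRD1), MAP3K3, MAP2K5, MEF2A, KLF2, CDH5 and NFAT5, and 4 non-targeting guides as the controls shared by every knockdown. Nothing in the labels says that replicates were separate cultures, so p-values measure the spread between these libraries, which may be technical. Among the knockdown libraries that spread also holds differences between guides.

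Collagens are trimers of alpha chains wound into a triple helix, and laminins are cross-shaped trimers of 1 alpha, 1 beta and 1 gamma chain. Type IV collagen and laminin each form a sheet, and the linked sheets are the core of the basement membrane under most endothelia. Endothelial basement membranes are known for laminins with the LAMA4 or LAMA5 chain joined to LAMB1 or LAMB2 and LAMC1, and for the COL4A1 and COL4A2 trimer. The laminin chains LAMA3 and LAMB3 and the transmembrane collagen COL17A1 are best known from epithelia, where they join cells to the basement membrane at hemidesmosomes with the integrin chain ITGB4.

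COL4A1 and COL4A2 lie head to head on chromosome 13, and the stretch between their starts is shown because the pair moved together in the cytokine and knockdown results given further on. The RefSeq starts (GRCh38.p14) are 127 bases apart, and the 126 bases between them, at chr13:110307158-110307283 on the plus strand, are 80.2% G or C. Capitals mark 1 CCAAT box (CCAAT) and 1 GC box (GGGCGG). Both genes read outward from this stretch, COL4A1 on the minus and COL4A2 on the plus strand.
COL4A1 to COL4A2: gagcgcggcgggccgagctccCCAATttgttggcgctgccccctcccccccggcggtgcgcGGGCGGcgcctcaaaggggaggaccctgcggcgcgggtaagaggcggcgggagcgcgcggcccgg

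Promoter windows of 300 bases (250 before and 50 after a start) were matched for 21 of the 26 members, giving 26 windows, since 4 members had more than 1 listed start. COL1A1, COL5A2, COL6A1, COL8A1 and COL9A3 were not matched. A GC box (GGGCGG, either strand) was in 20 of the 26 windows (76.9%), against 45.0% of all 35116 promoter windows. A CCAAT box (CCAAT) was in 6 (23.1%, against 34.6%), and TATAAA in 5 (19.2%, against 11.5%). The AP-1 motif TGANTCA was in 2 windows (7.69%, against 7.71%), those of LAMA3 and LAMB3. A match to the NF-kB motif was in 5 (19.2%, against 11.3%): those of COL6A2, COL7A1 and LAMB1, and 2 of LAMB3. These 2 LAMB3 windows overlap and hold the same 3 matches, while the remaining LAMB3 window had no match. Windows of COL4A1 and COL4A2 also share 226 bases, so the 26 windows are not all separate promoters. COL4A5 and COL4A6 are a second head-to-head pair, with nearest listed starts 380 bases apart, and COL4A3 and COL4A4 another, 419 bases apart. The last pair was hardly listed in the parental block, with highest values of 0.0339 TPM for COL4A3 and 0.016 TPM for COL4A4. These matches describe letters in a window, and no factor's binding was measured.

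The other 29 symbols that matched by name but were not kept include several best known from fibroblasts. COL1A2, a chain of type I collagen, peaked at 0.324 TPM in the parental block and 0.467 in the CRISPRi block. COL3A1, the fibrillar chain of type III, peaked at 0.0606 and 0.519 TPM. COL1A1, the other chain of type I, was at most 0.222 TPM in the parental block and reached 1 TPM in 6 CRISPRi libraries, with 1.47 TPM as its highest value. Just inside the threshold in the CRISPRi block were COL7A1 (3 libraries) and LAMA2 (6). Just outside were COL9A2, with 2 libraries in each block, and COL6A3, with 2 CRISPRi libraries and a highest value of 1.64 TPM. COL6A3 encodes the chain that joins COL6A1 and COL6A2 in type VI collagen.

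The labelled cell type was checked with 10 endothelial markers, all of which were at 1 TPM or more in every library. CDH5, one of them, was at 9.96 and 9.36 TPM in its own 2 knockdown libraries, against 345 to 378 in the controls. Their summed level was 3570 to 3806 TPM in the TeloHAEC groups, 987 to 1129 in the Eahy926 groups and 2837 to 4507 in the CRISPRi libraries. The untreated Eahy926 library 1.2 stood apart: over the 20 members at 5 TPM or more its median log2 difference from the other controls of its line was -0.49, and it was below both of them for 18. The same median lay between -0.10 and 0.24 in every other parental library. Calls that change without this library are given beside the results that use the Eahy926 controls. The 2 blocks were quantified separately and are not compared. Depth is unknown, because TPM keep no count of reads.

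Laminin chains of the endothelial basement membrane led the order of levels in untreated TeloHAEC. LAMB1 was at 612, 623 and 617 TPM, LAMC1 at 418, 421 and 407 TPM, and COL4A2, the second chain of the main type IV trimer, at 279, 272 and 295 TPM. Each of these 3 stood clear of the next in the order. LAMA4 followed at a mean of 246 TPM and overlapped COL4A1 at 238. LAMA5 (221) overlapped COL18A1 (211), the chain whose tail is released as endostatin, and COL13A1 (198), a transmembrane collagen, overlapped COL5A1 (195), a fibrillar chain of type V. At the foot were LAMA3 at 13 TPM, COL9A3 at 0.589 and COL16A1 at 0.367 TPM, the last 2 overlapping. Collagen chains summed to 1648 to 1740 TPM per library and laminin chains to 1751 to 1768.

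In untreated Eahy926, LAMB1 was again first, with 479, 347 and 495 TPM. Next came COL8A1, a short-chain collagen that forms hexagonal networks, at 338, 249 and 321 TPM, then LAMC1 at 316, 199 and 312 and LAMA4 at 293, 169 and 302 TPM. LAMB1 stood clear of COL8A1, while COL8A1 overlapped LAMC1 and LAMC1 overlapped LAMA4. COL4A1, 5th in TeloHAEC, was 16th here, with 19.2, 13.2 and 18.5 TPM. Collagen chains summed to 524 to 712 TPM and laminin chains to 974 to 1444, with library 1.2 the lowest in both. The heat map of levels shows the change of order between the lines.

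**Figure D1:**
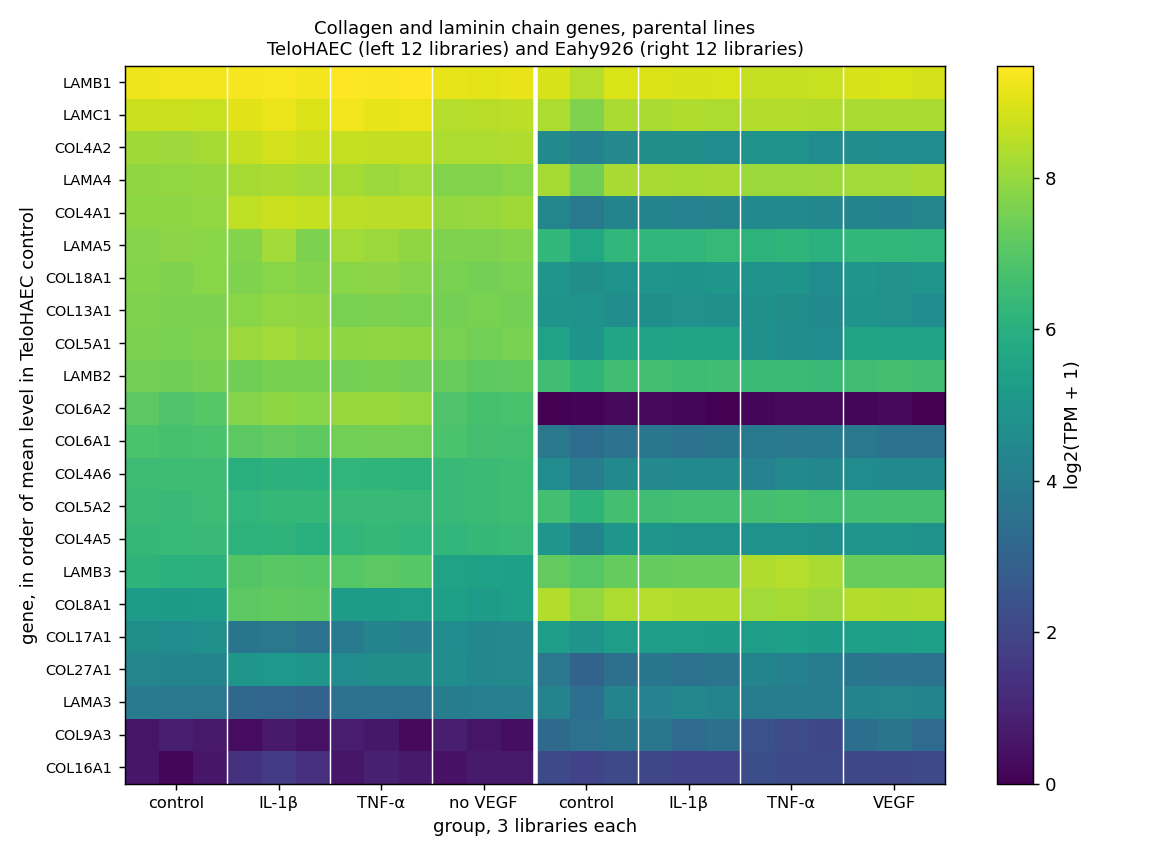
Heat map of the 22 members (rows, in order of mean level in untreated TeloHAEC) over the 24 parental libraries (columns, in 8 groups of 3), coloured by log2(TPM + 1). Rows of COL4A1, COL4A2, COL6A2, COL13A1 and COL18A1 are bright in TeloHAEC and dark in Eahy926, COL8A1 does the reverse, and the column of untreated Eahy926 library 1.2 is darker than its neighbours.

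The first comparison set untreated TeloHAEC against untreated Eahy926 and asked how the matrix genes of the lines differ. Type IV, VI, XIII and XVIII collagen chains were higher in TeloHAEC, and COL8A1, COL9A3 and LAMB3 were lower. Of 22 members, 14 were higher and 5 lower by limma's moderated test with Benjamini-Hochberg adjustment, an adjusted p under 0.05 being the call used throughout. Over all 13542 genes tested, 76.2% were called (36.3% higher, 39.9% lower), so most genes differ between these lines. The median log2 difference, on the log2(TPM + 1) scale used for all fold changes here, was 0.95 over the members and -0.05 over all genes. COL6A2 and COL9A3 reach 1 TPM in 1 line each, so they passed the filter through the line where they are high. Markers of other cell types differed too in the fitted controls. A list of 12 fibroblast and mural markers summed to 336 to 347 TPM in TeloHAEC and 91.2 to 95.8 in Eahy926. A list of 10 epithelial markers summed to 2048 to 2134 and 4092 to 4153 TPM. Neither list moved as 1. Of 6 epithelial markers tested, 2 were higher and 4 lower in TeloHAEC, and of 5 fibroblast and mural markers 4 were higher and 1 lower. In libraries 0.1 and 0.2 the fibroblast and mural list summed to 1384 and 1389 TPM in TeloHAEC and 55.4 and 53.8 in Eahy926. The epithelial list there summed to 2232 and 2221 against 2134 and 2247 TPM, so the lines overlapped. The part of these markers in the line difference was not tested.

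COL4A1 differed by 3.75 log2 units (SE 0.09, limma adjusted p = 2.89e-20), from 238 ± 9.02 TPM in TeloHAEC to 17 ± 3.32 in Eahy926 (SD, n = 3 each). COL4A2 differed by the same 3.75 (SE 0.08, adjusted p = 3.36e-21), with 282 ± 11.8 against 20.2 ± 2.93 TPM. No library of either line overlapped the other for either chain. The second pair, COL4A5 and COL4A6, chains of a trimer found in some basement membranes, had smaller differences of 1.62 and 2.16. COL18A1 was at 212, 201 and 220 TPM against 30.0, 24.9 and 28.6, a difference of 2.88 (SE 0.07, adjusted p = 1.38e-19).

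Among the other collagens, COL6A2 was at 137, 117 and 128 TPM in TeloHAEC and listed at 0, 0.0707 and 0.153 TPM in Eahy926. Its partner chain COL6A1 was at 110, 104 and 108 TPM against 12.8, 9.12 and 11.1, so Eahy926 had COL6A1 with almost no COL6A2. COL13A1 was at 201, 196 and 196 TPM against 28.7, 28.1 and 24.2 (2.83, SE 0.07, adjusted p = 5.25e-20). COL5A1 was at 196, 190 and 198 TPM against 43.6, 29.3 and 47.0 (2.28, SE 0.10, adjusted p = 4.77e-15), while its trimer partner COL5A2 was at 87.6, 85.4 and 89.5 against 99.4, 70.8 and 99.8 TPM and was not called (-0.02, adjusted p = 0.81). In the other direction, COL8A1 was at 36.6, 35 and 37.3 TPM in TeloHAEC, below all 3 Eahy926 libraries (-3.01, SE 0.07, adjusted p = 7.92e-20). COL9A3, a chain of the fibril-associated type IX, was at 0.466, 0.745 and 0.555 TPM against 8.66, 10.6 and 11.7 (-2.83, adjusted p = 2.43e-13).

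Laminin chains differed less. LAMA5 was at 215, 227 and 220 TPM in TeloHAEC and 76.6, 50.3 and 74.5 in Eahy926 (1.73, SE 0.12, adjusted p = 2.18e-11). LAMB2 was at 182, 170 and 185 against 94.0, 72.2 and 93.5 TPM (1.05, adjusted p = 7.21e-12). LAMC1 (0.62, adjusted p = 1.52e-05) and LAMB1 (0.50, adjusted p = 3.49e-06) were higher in TeloHAEC by less, with LAMC1 at 415 ± 7.21 against 276 ± 66.7 TPM. LAMA4, the alpha chain of the main endothelial laminin, was at 240, 249 and 250 TPM against 293, 169 and 302 and was not called (adjusted p = 0.98), its TeloHAEC values lying inside the Eahy926 range. LAMB3 was lower, at 70.7, 66.1 and 66.5 TPM against 148, 126 and 150 (-1.05, adjusted p = 1.05e-13).

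Without Eahy926 library 1.2 all 22 members were called, where 10490 of 13542 genes were called, against 10313 with it. LAMA4 (-0.27, limma adjusted p = 3.46e-06), COL5A2 (-0.19, adjusted p = 0.000512) and LAMA3 (-0.43, adjusted p = 1.01e-05) were then lower in TeloHAEC. The untreated libraries numbered 0.1 and 0.2 gave the same sign for 18 of the 19 called members. COL17A1 was the reverse there, with 37.3 and 36.6 TPM in TeloHAEC and 29.8 and 30.1 in Eahy926, against 25.5, 22.6 and 25.8 and 39.1, 28.9 and 37.4 TPM in the fitted controls. COL8A1 kept its direction with values nearer each other (74.7 and 71.3 against 168 and 157 TPM).

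The next comparisons asked how TeloHAEC matrix genes respond to the inflammatory cytokines. IL-1β raised 11 of 22 members and lowered 3, where 9.92% of all genes tested were higher and 21.2% lower (31.1% called). With median-of-ratios scaling 1893 of 3990 called genes were higher, a more even split. The median log2 difference was 0.26 over the members and -0.07 over all genes. TNF-α raised 7 and lowered 2, against 8.27% and 9.95% of all genes (18.2% called), with medians of 0.19 and -0.02. Both comparisons share the same 3 control libraries. In these bulk samples, fewer cells of a type and less RNA per cell cannot be told apart. Summed collagen was 1648 to 1740 TPM in control, 2201 to 2419 with IL-1β and 2131 to 2162 with TNF-α, and summed laminin was 1751 to 1768, 1943 to 2188 and 2112 to 2237 TPM.

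Basement membrane collagen IV rose with either cytokine. COL4A1 was at 378, 420 and 399 TPM with IL-1β and 376, 357 and 366 with TNF-α, against 233, 232 and 248 in control. All treated libraries lay above all control libraries, and the differences were 0.74 (SE 0.09, limma adjusted p = 5.95e-07) and 0.62 (SE 0.09, adjusted p = 1.12e-05). COL4A2 was at 400, 458 and 425 TPM with IL-1β and 404, 390 and 392 with TNF-α, against 279, 272 and 295 in control (0.60, adjusted p = 2.48e-06, and 0.49, adjusted p = 5.62e-05). The direct comparison of IL-1β with TNF-α called neither chain (0.12, adjusted p = 0.43, and 0.11, adjusted p = 0.42). COL4A6 went the other way, at 61.2, 67.0 and 65.6 TPM with IL-1β and 75.2, 72.6 and 69.9 with TNF-α, against 90.2, 91.9 and 92.1 (-0.49, adjusted p = 0.000547, and -0.33, adjusted p = 0.0228). Its head-to-head neighbour COL4A5 was not called (-0.25, adjusted p = 0.11, with IL-1β). COL18A1 was at 200, 222 and 211 TPM with IL-1β and 219, 229 and 215 with TNF-α, which overlap its control values of 212, 201 and 220.

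The cytokines differed most in COL8A1. This short-chain collagen was at 137, 145 and 139 TPM with IL-1β, at 36.3, 36.7 and 38.2 with TNF-α and at 36.6, 35 and 37.3 in control. IL-1β libraries stood far above the rest (1.92, SE 0.07, limma adjusted p = 5.3e-15), while TNF-α libraries overlapped the controls (0.03, adjusted p = 0.86). IL-1β against TNF-α directly gave 1.89 (SE 0.07, adjusted p = 4.72e-14). That direct comparison called 7 members, 4 higher and 3 lower, where 12.7% of all genes were called (3.52% higher, 9.22% lower). Among the others higher with IL-1β was COL13A1, at 223, 244 and 238 TPM against 190, 195 and 191 with TNF-α (0.29, adjusted p = 0.00598). COL6A1 was lower with IL-1β, at 136, 147 and 141 TPM against 178, 180 and 175 (-0.33, adjusted p = 0.00738).

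Type VI collagen rose with both. COL6A2 was at 213, 232 and 223 TPM with IL-1β and 256, 258 and 245 with TNF-α, against 137, 117 and 128 (0.80, limma adjusted p = 6.09e-08, and 0.99, adjusted p = 3.44e-09). COL6A1, at 110, 104 and 108 TPM in control, rose by 0.39 (adjusted p = 0.000588) and 0.72 (adjusted p = 4.43e-07). COL5A1 was at 263, 287 and 260 TPM with IL-1β and 232, 237 and 235 with TNF-α, against 196, 190 and 198. All treated libraries were above the controls, and the test called IL-1β (0.47, adjusted p = 0.00113) but missed its threshold for TNF-α (0.27, adjusted p = 0.074). COL27A1, a fibrillar chain with a short helix, was at 31.3, 32.5 and 31.8 TPM with IL-1β and 22.7, 24.5 and 24.6 with TNF-α, against 18.7, 18.5 and 18.3 (0.75, adjusted p = 3.66e-05, and 0.35, adjusted p = 0.042). COL1A1 was below the filter in this block.

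**Figure D2:**
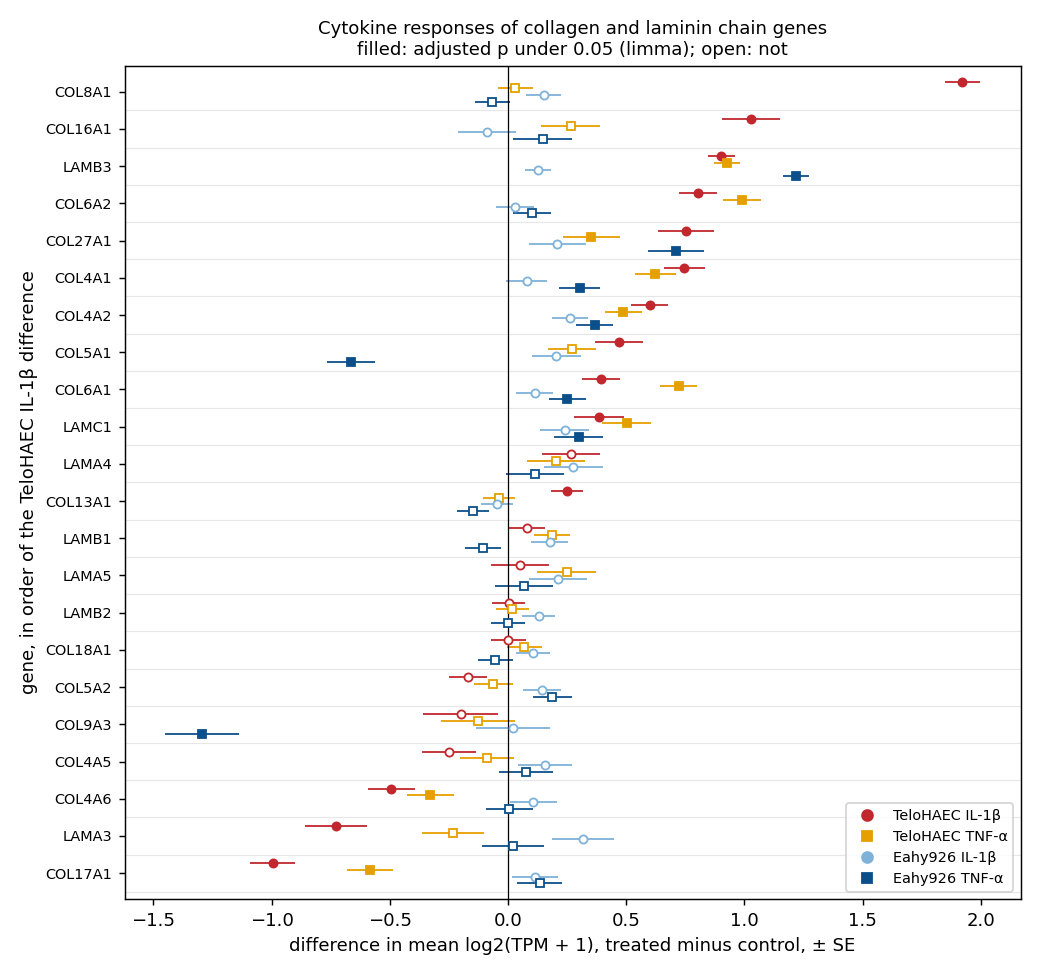
Difference from control in log2(TPM + 1), with its standard error, for each of the 22 members in the 4 cytokine comparisons (IL-1β and TNF-α in TeloHAEC and in Eahy926); filled points passed the test. COL8A1 stands out at 1.92 with IL-1β in TeloHAEC alone, LAMB3 lies to the right in 3 of the 4 comparisons, and no point is filled for IL-1β in Eahy926.

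Among laminins, LAMB3 and LAMA3, chains best known from epithelia, moved apart. LAMB3 was at 123, 132 and 128 TPM with IL-1β and 125, 135 and 129 with TNF-α, against 70.7, 66.1 and 66.5 (0.90, limma adjusted p = 1.97e-11, and 0.93, adjusted p = 1.93e-11). LAMA3 fell with IL-1β, from 13.6, 12.9 and 12.5 TPM to 7.96, 7.46 and 7 (-0.73, SE 0.13, adjusted p = 0.000174). COL17A1, the hemidesmosome collagen, also fell: it was at 11.8, 12.8 and 11.1 TPM with IL-1β and 13.9, 18.1 and 16.5 with TNF-α, against 25.5, 22.6 and 25.8 (-1, adjusted p = 3.66e-08, and -0.58, adjusted p = 9.37e-05). The IL-1β values lay below all TNF-α values, and the direct comparison gave -0.41 (adjusted p = 0.00559).

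The bases before the LAMB3 start are shown because LAMB3 moved with TNF-α in both lines and in VEGF-free medium. They run 250 bases up to the most upstream of 3 listed starts, at chr1:209652426-209652675 on the minus strand (RefSeq, GRCh38.p14), 64% G or C. Capitals mark 1 GC box, here as CCGCCC, and 2 stretches that hold 3 matches to the NF-kB motif, 1 in the first and 2 that overlap in the second.
LAMB3: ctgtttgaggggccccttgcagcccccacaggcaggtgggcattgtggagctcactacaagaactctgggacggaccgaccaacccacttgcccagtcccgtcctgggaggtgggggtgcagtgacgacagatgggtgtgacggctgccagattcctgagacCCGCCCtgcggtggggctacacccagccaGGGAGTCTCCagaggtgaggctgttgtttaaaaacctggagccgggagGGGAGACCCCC

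Of the abundant endothelial laminin chains, LAMC1 alone was called in the fit of all 24 parental libraries. It rose with both cytokines, to 532, 588 and 509 TPM with IL-1β and 620, 560 and 586 with TNF-α from 418, 421 and 407 (0.38, limma adjusted p = 0.00735, and 0.50, adjusted p = 0.00121). LAMB1 was at 648, 679 and 634 TPM with IL-1β and 716, 692 and 699 with TNF-α, all above the controls at 612, 623 and 617, but was not called (0.08, adjusted p = 0.46, and 0.19, adjusted p = 0.1). LAMA4 was likewise above its controls without a call, at 292, 311 and 287 TPM with IL-1β and 297, 268 and 286 with TNF-α against 240, 249 and 250 (adjusted p = 0.11 and 0.31). LAMA5 with IL-1β was spread from 195 to 288 TPM around its controls of 215 to 227. LAMB2 was at 171, 183 and 183 TPM with IL-1β and 181, 183 and 179 with TNF-α, inside the control range of 170 to 185.

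All 14 calls with IL-1β held when any single library of the comparison was left out. With a pseudocount of 0.1, COL6A2 with IL-1β was not called (0.81, limma adjusted p = 0.081). With TNF-α, COL27A1 lost its call without any of the 6 libraries (adjusted p 0.0594 to 0.115) and COL4A6 without any of 5 (0.0508 to 0.0837). When the untreated libraries 0.1 and 0.2 joined the controls, the calls of COL13A1, COL27A1, COL6A1 and LAMC1 with IL-1β and of COL27A1, COL4A6 and LAMC1 with TNF-α were lost. Markers of other cell types moved alongside. The epithelial list, led by KRT18 and KRT19, summed to 2048 to 2134 TPM in control, 1062 to 1101 with IL-1β and 1485 to 1573 with TNF-α, with its defining members EPCAM and CDH1 at no more than 2.68 and 0.138 TPM in any parental library. Of the 6 epithelial markers tested, IL-1β lowered 3 and raised 0, where 21.2% and 9.92% of all genes were called. TNF-α lowered 3 and raised 1, where 9.95% and 8.27% were called. The fibroblast and mural list summed to 336 to 347 TPM in control, 181 to 188 with IL-1β and 193 to 218 with TNF-α, with LUM at 0 in every parental library and DCN at no more than 0.128 TPM. Each cytokine lowered 2 of its 5 tested markers and raised 0. Their part in the results was not tested.

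**Figure D3:**
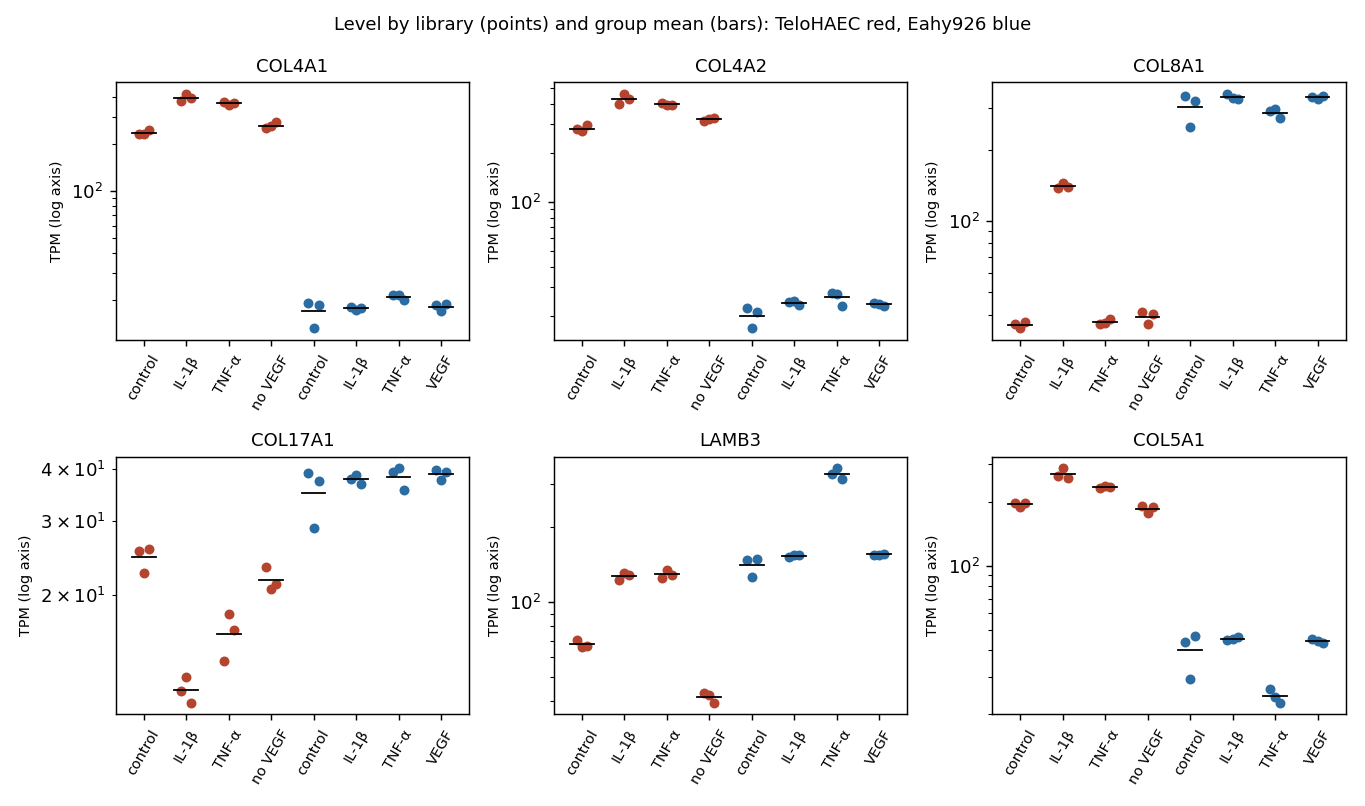
TPM in each library (points) with the group mean (bar) for COL4A1, COL4A2, COL8A1, COL17A1, LAMB3 and COL5A1, on log axes, in the 4 TeloHAEC groups (red) and the 4 Eahy926 groups (blue). COL8A1 in TeloHAEC is high with IL-1β alone, COL17A1 is lower with either cytokine in TeloHAEC (11.1 to 18.1 TPM against 22.6 to 25.8), and LAMB3 is highest with TNF-α in Eahy926 at 314 to 346 TPM.

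TeloHAEC in medium lacking VEGF asked what the growth factor contributes. No member was higher and 2 were lower, LAMB3 and LAMB2, where 13.1% of all genes were called (9.10% higher, 4.02% lower). Member and all-gene medians were -0.09 and 0.03. LAMB3 was at 43.2, 42.3 and 39.4 TPM, below its controls at 70.7, 66.1 and 66.5 (-0.69, SE 0.06, limma adjusted p = 3.34e-08). LAMB2 was at 153, 139 and 143 TPM against 182, 170 and 185 (-0.30, SE 0.07, adjusted p = 0.0053). No library overlapped for either. COL4A1 at 253, 262 and 276 TPM and COL4A2 at 315, 321 and 329 were above all their controls without a call (0.15, adjusted p = 0.3, and 0.19, adjusted p = 0.12). LAMA4 at 206, 206 and 220 TPM and LAMC1 at 342, 356 and 371 were below all of theirs, also without a call (adjusted p = 0.27 and 0.19). COL8A1 was at 40.9, 36.3 and 40.1 TPM, COL5A1 at 190, 178 and 189 and COL18A1 at 190, 181 and 192, none of them called.

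Eahy926 responded to TNF-α but showed no called member with IL-1β. With IL-1β, 0 of 22 members were called by limma, 6 had an unadjusted p under 0.05, and 0.00738% of all genes were called, which is 1 gene. With added VEGF, 0 members were called, 5 had an unadjusted p under 0.05, and 0.00738% of all genes were called. Without control library 1.2 both counts of members stayed at 0. COL8A1, for example, was at 344, 330 and 327 TPM with IL-1β against 338, 249 and 321, and COL4A1 at 18, 17.3 and 17.9 against 19.2, 13.2 and 18.5. TNF-α raised 6 members and lowered 2, where 20.0% of all genes were called (12.5% higher, 7.45% lower). Medians were 0.09 over members and 0.03 over all genes, and without control library 1.2 the member median was -0.12.

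LAMB3 was at 330, 346 and 314 TPM with TNF-α in Eahy926, against 148, 126 and 150 (1.22, SE 0.06, limma adjusted p = 1.56e-13). COL27A1 was at 18.3, 16.8 and 14.8 TPM against 12.5, 7.09 and 10.4 (0.71, adjusted p = 0.000122). COL4A2 was at 27.9, 27.5 and 23.2 TPM against 22.5, 16.9 and 21.2 (0.37, adjusted p = 0.00137), and COL4A1 at 21.4, 21.5 and 19.9 against 19.2, 13.2 and 18.5 (0.30, adjusted p = 0.0151). In the other direction, COL9A3 fell from 8.66, 10.6 and 11.7 TPM to 4.27, 3.48 and 3.09 (-1.29, SE 0.16, adjusted p = 1.64e-06). COL5A1 fell from 43.6, 29.3 and 47.0 TPM to 26.4, 24.2 and 22.7 (-0.66, SE 0.10, adjusted p = 4.2e-05). The treated and untreated values of these chains did not overlap.

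The smaller rises depended on control library 1.2. Without it COL4A1 (0.14, limma adjusted p = 0.0696), COL6A1 (0.13, adjusted p = 0.184) and LAMC1 (0.08, adjusted p = 0.29) were no longer called. COL8A1 (-0.20, adjusted p = 0.00453), LAMA3 (-0.24, adjusted p = 0.0165), LAMA4 (-0.16, adjusted p = 0.0088) and LAMB1 (-0.27, adjusted p = 6.77e-07) were then called lower. LAMA4, for example, was at 268, 264 and 270 TPM with TNF-α, between the lowest control at 169 and the others at 293 and 302. COL4A2 (0.25, adjusted p = 0.00671), COL27A1, LAMB3, COL9A3 and COL5A1 kept their calls without it. When only the groups compared were fitted, COL4A2 (limma adjusted p = 0.211), COL27A1 (0.133) and COL5A1 (0.123) lost theirs, and LAMB3 and COL9A3 kept theirs. With all 5 Eahy926 controls COL27A1 (0.21, adjusted p = 0.677) and LAMC1 (0.11, adjusted p = 0.683) were not called and COL6A1 turned to -0.11 (adjusted p = 0.76). COL4A1 also lost its call without TNF-α library 1.1 (0.054) or 1.2 (0.0531), COL6A1 without 1.1 (0.0649) or 1.3 (0.0927), and LAMC1 without any TNF-α library (0.098 to 0.108). The epithelial list summed to 4092 to 4153 TPM in control and 2528 to 2669 with TNF-α; its part was not tested.

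Whether the lines responded differently was tested as an interaction, the TeloHAEC change minus the Eahy926 change. For IL-1β, 11 members differed, 8 with the larger value in TeloHAEC and 3 with the smaller, where 22.5% of all genes were called (5.96% and 16.5%). With median-of-ratios scaling 1321 of 2745 called genes were higher, against 807 of 3043 as deposited. For TNF-α 6 differed, 4 and 2, where 10.3% of all genes were called (3.26% and 7.05%). COL8A1 with IL-1β differed by 1.77 (SE 0.10, limma adjusted p = 2.21e-11) and COL17A1 by -1.11 (adjusted p = 2.54e-06). COL4A1 differed by 0.66 with IL-1β (adjusted p = 0.000369) and COL4A2 by 0.34 (adjusted p = 0.0299). With all 5 controls of each line neither was called (COL4A1 0.51, adjusted p = 0.112, and COL4A2 0.21, adjusted p = 0.542). COL4A2 also lost its call without any of 7 single libraries (adjusted p 0.051 to 0.0857), among them Eahy926 controls 1.1 and 1.3. With TNF-α, COL17A1, at 39.3, 40.1 and 35.7 TPM in treated Eahy926, differed by -0.72 (adjusted p = 0.000914). COL5A1, higher without a call in TeloHAEC with TNF-α and called lower in Eahy926, differed by 0.93 (adjusted p = 9.39e-05). LAMB3 rose in both lines with TNF-α, more in Eahy926 (-0.29, adjusted p = 0.017), but this difference lost its call without Eahy926 TNF-α library 1.2, TeloHAEC control 1.1 or TeloHAEC TNF-α 1.1. COL13A1 with IL-1β lost its call without any 1 of 8 libraries (limma adjusted p 0.0562 to 0.0738), among them Eahy926 control 1.2 (0.27, adjusted p = 0.0562). COL27A1 with IL-1β lost its call without Eahy926 control 1.1 (adjusted p = 0.0605) or Eahy926 IL-1β library 1.2 (adjusted p = 0.059). Without Eahy926 control 1.2, COL5A1 (0.47), COL6A1 (0.40), LAMA4 (0.26) and LAMC1 (0.36) gained a call with IL-1β. The counts were then 14 for IL-1β and 11 for TNF-α, where 3209 and 1683 of 13542 genes were called. With all libraries 3043 and 1396 genes were called. Without that control library the TNF-α count included COL4A1 (0.48) and LAMC1 (0.42).

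Enzymes and partners that build and bind these chains were read from 3 lists: collagen biosynthesis (31 genes), basement membrane partners (16) and matrix receptors (17). Over all genes, 9.92% were called higher and 21.2% lower with IL-1β in TeloHAEC, 8.27% and 9.95% with TNF-α, and 9.10% and 4.02% in VEGF-free medium. Of the 27 biosynthesis genes tested in the parental block, IL-1β raised 10 and lowered 5 (median 0.06, against -0.07 over all genes), TNF-α raised 8 and lowered 2 (0.03 against -0.02), and VEGF-free medium raised 1 and lowered 6. PLOD2, a lysyl hydroxylase of collagen, had a mean of 571 TPM with IL-1β against 229 (1.31, limma adjusted p = 1.24e-13), LOX, a crosslinking enzyme, 12.1 against 4.65, and COLGALT1, which adds galactose to hydroxylysine, 477 against 217. PXDN, the peroxidase that crosslinks type IV collagen, was at 675 with TNF-α against 369 (0.87). P4HA1, a prolyl hydroxylase subunit, was at 62.3 in VEGF-free medium against 122 (-0.95, adjusted p = 4.19e-09). In Eahy926 with TNF-α 5 of 27 rose and 1 fell, a share near the 20.0% called over all genes, with PXDN at 35.9 against 18 TPM.

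Of 12 basement membrane partners tested, IL-1β in TeloHAEC raised 4 and lowered 6 (31.1% of all genes called), and TNF-α raised 3 and lowered 5 (18.2% of all genes called). NID2, a nidogen linking laminin to type IV collagen, was at 19.6 TPM with IL-1β against 8.10, and TINAGL1 at 342 against 690. AGRN, the proteoglycan agrin, was at 174 with TNF-α against 88.7, and HSPG2, perlecan, at 791 against 520 (0.60, limma adjusted p = 0.0189). Of 14 receptors, IL-1β raised 1 and lowered 8, with a median of -0.25, and TNF-α raised 2 and lowered 6, with a median of -0.14, against the same shares of all genes. ITGA1, a collagen-binding integrin chain, was at 16.9 TPM with IL-1β and 7.90 with TNF-α against 2.94 (2.19, adjusted p = 1.8e-10, and 1.17). ITGB4, the hemidesmosome laminin receptor that binds COL17A1, was low in TeloHAEC, at 1.42, 1.27 and 1.36 TPM, and lower with IL-1β (0.0472, 0 and 0.137) and TNF-α (0.319, 0.0487 and 0.0473). In Eahy926 ITGB4 fell with TNF-α from 15.5, 10.1 and 15.4 TPM to 3.89, 4.31 and 4.21 (-1.49, adjusted p = 7.17e-08), where COL17A1 was not called.

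The knockdown libraries asked which regulators of endothelial programs bear on these genes. CCM2 and PDCD10 encode members of the cerebral cavernous malformation complex, ITGB1BP1 a binder of KRIT1 and of an integrin tail, and TLNRD1 (MESDC1) a talin-rod protein. MAP3K3 and MAP2K5 are kinases upstream of the transcription factors MEF2A and KLF2, CDH5 is VE-cadherin and NFAT5 an osmotic stress factor. CCM2 was at 9.19 and 2.62 TPM in its own libraries against 56.4 to 61.8 in the controls, PDCD10 at 4.81 and 15.2 against 34.9 to 38.2, ITGB1BP1 at 8.72 and 9.61 against 62.5 to 70.7, and TLNRD1 at 3.54 and 7.37 against 34.3 to 38.5. MAP3K3 was at 2.54 and 10.7 TPM against 69.9 to 76.4, MEF2A at 0.981 and 3.58 against 23.3 to 31.8, and KLF2 at 2.99 and 6.12 against 91.3 to 123. Of 2 targets, 1 library each went against its label: the library labelled MAP2K5 with guide A11 had 26.2 TPM of MAP2K5 (guide B5 1.27, controls 19.0 to 27.7), and the library labelled NFAT5 with guide D7 had 11.4 TPM of NFAT5 (guide D4 2.19, controls 10.7 to 13.8).

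The guides of the 4 targets whose libraries share the COL17A1 result are shown with their last 10 bases, next to the PAM, in capitals.
CCM2 C2: ggcaagaaggTGAGCGTGCG
CCM2 F6: gagccgctacaTGCTCGACCC
PDCD10 D11: gaccgagcagAAGAGGTCTA
PDCD10 G1: gccgctttacgCCACTCGCGT
ITGB1BP1 C7: gaaggccgcggCACTCCCACG
ITGB1BP1 G8: gccgcggtatATAAGCCGGC
MESDC1 B3: gtggctgcgccGCCGCCCGCA
MESDC1 D12: gcctccggcagCCCCTGCGGG

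COL17A1 rose in 4 of the 10 knockdowns, and it was the sole member called in all 4. In the controls it was at 7.63, 6.45, 7.54 and 6.54 TPM. It was at 32.7 and 39.5 TPM with CCM2 guides (2.20, SE 0.21, limma adjusted p = 4.84e-06), 33.2 and 21.1 with ITGB1BP1 guides (1.77, adjusted p = 8.29e-05), 24.6 and 18.2 with MESDC1 guides (1.47, adjusted p = 0.00239), and 17.3 and 10.9 with PDCD10 guides (0.88, adjusted p = 0.0213). All 8 libraries lay above all controls. In the 12 libraries of the other targets it was between 4.33 and 8.01 TPM, with no call. These comparisons share the 4 controls, so they are not independent. ITGB4, which it binds in hemidesmosomes, had control values of 14.3, 10.9, 11.1 and 11.2 TPM and was at 148 and 126 with CCM2 guides, 133 and 116 with ITGB1BP1, 79.5 and 72.7 with MESDC1 and 47.1 and 53.3 with PDCD10. With MAP3K3 guides ITGB4 was lower, at 1.28 and 3.67 TPM (-1.97, adjusted p = 0.00829), and COL17A1 was at 5.09 and 5.36 without a call (-0.37, adjusted p = 0.77). ITGB4 was also below every control, without a call, with KLF2 guides (2.40 and 3.46 TPM). The same held for MAP2K5 guides A11 (7.98) and B5 (2.87) and for MEF2A guides (5.97 and 8.16).

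The 250 bases before the COL17A1 start are shown because it is the member that moved with most knockdowns. They lie at chr10:104085881-104086130 on the minus strand (RefSeq, GRCh38.p14) and are 40.4% G or C. Capitals mark 1 match to the letters TATAAA and 1 CCAAT box, here as ATTGG, and no GC box was found. The TATAAA match lies in the part of the stretch farthest from the start.
COL17A1: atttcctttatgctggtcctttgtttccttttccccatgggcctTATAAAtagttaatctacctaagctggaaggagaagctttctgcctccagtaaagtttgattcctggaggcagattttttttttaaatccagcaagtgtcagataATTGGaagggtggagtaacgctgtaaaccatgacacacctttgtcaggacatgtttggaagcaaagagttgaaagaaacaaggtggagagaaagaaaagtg

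**Figure D4:**
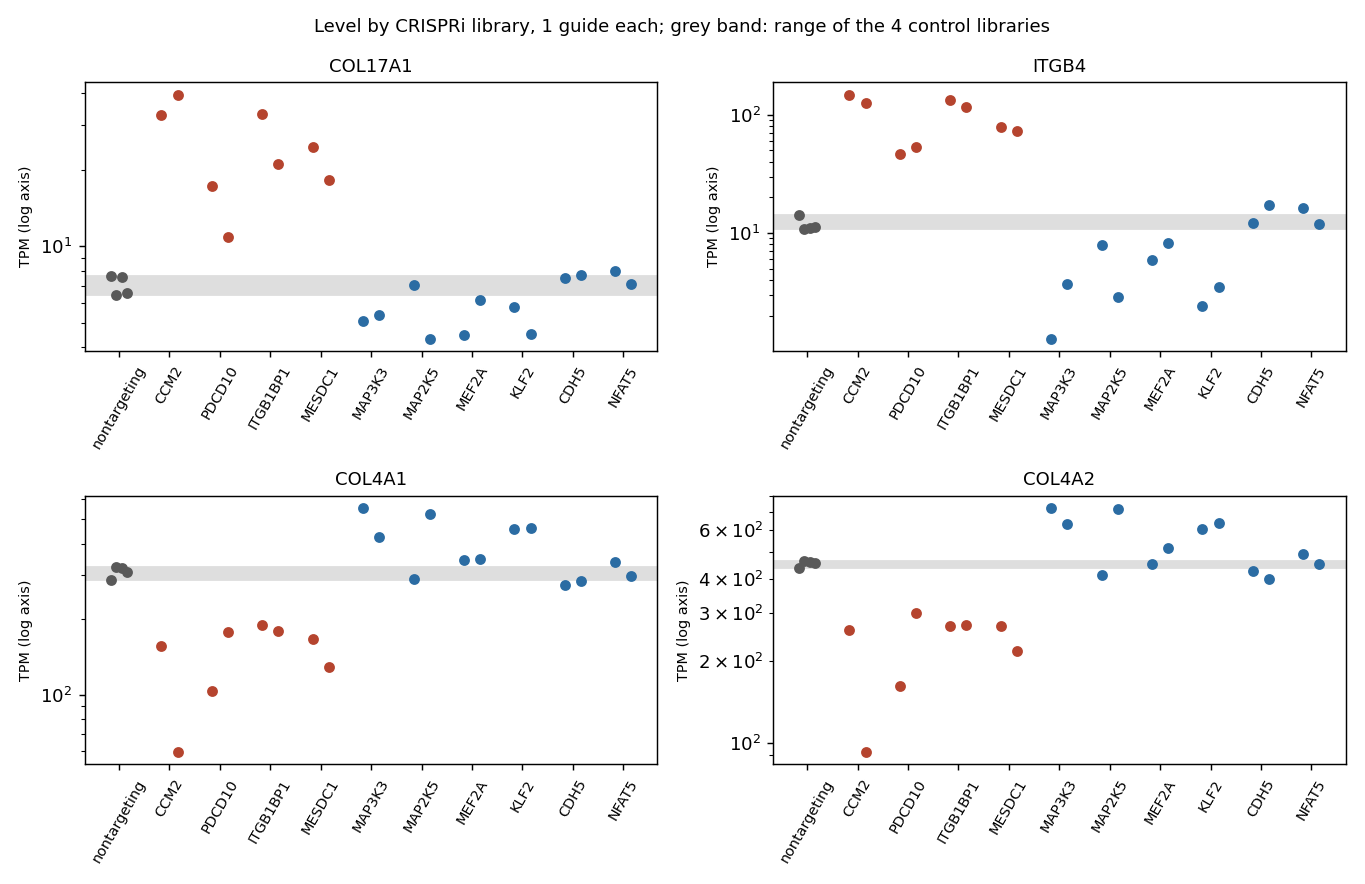
TPM of COL17A1, ITGB4, COL4A1 and COL4A2 in each CRISPRi library, on log axes, with the 4 non-targeting controls as grey points and their range as a grey band. Points of the CCM2, PDCD10, ITGB1BP1 and MESDC1 libraries (red) lie above the band for COL17A1 and ITGB4 and below it for COL4A1 and COL4A2. The MAP3K3 and KLF2 libraries, MAP2K5 guide B5 and MEF2A guide H10 (blue) lie on the other side of it for all 4 genes.

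CCM2 knockdown changed the most members. Of 26, 4 were higher and 6 lower, where 14.0% of 14143 genes were called (5.66% higher, 8.37% lower), with medians of -0.24 over members and -0.10 over all genes. COL4A1 was at 156 and 59.2 TPM against 287, 324, 320 and 309 in the controls (-1.67, SE 0.28, limma adjusted p = 0.000869). COL4A2 was at 259 and 92.5 TPM against 436, 466, 459 and 455 (-1.54, SE 0.29, adjusted p = 0.00193). Both guides lay below every control for both chains, and guide F6 was much lower than C2. COL27A1 fell to 17.3 and 11.8 TPM from 27.5, 29.5, 30.8 and 31.7 (-1.01, adjusted p = 0.00237). Among laminins, LAMA4 fell to 201 and 161 TPM from 250 to 286 (-0.55, adjusted p = 0.00583) and LAMB1 to 422 and 400 from 512 to 551 (-0.38, adjusted p = 0.00747), while LAMA5 rose to 560 and 635 from 370 to 504 (0.50, adjusted p = 0.0168) and LAMB2 to 432 and 393 from 268 to 335 (0.43, adjusted p = 0.0193). COL13A1 (0.57) and LAMA3 (-0.53) were also called. COL18A1, at 349 and 236 TPM against 351 to 394, was below every control without a call. So were COL5A1, at 238 and 195 against 260 to 285, and LAMC1, at 314 and 342 against 371 to 389. COL6A1, at 213 and 195 TPM against 140 to 154, was above every control without a call. So was COL6A2, at 245 and 218 against 174 to 192. COL8A1 was at 6.78 and 6.65 against 4.78 to 6.54.

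Guide F6 carried most of these calls. Without its library COL17A1 was the sole member called, with COL4A1 at -0.98 (limma adjusted p = 0.0551) and COL4A2 at -0.81 (adjusted p = 0.109), and 386 genes were called in all against 1984. Without the library of guide C2, 9 members were called. LAMA3 lost its call without any single library (0.0601 to 0.281), COL13A1 without any control or F6 (0.0544 to 0.417), and LAMB2 without control 1 (0.0543), C2 (0.134) or F6 (0.0893). When TPM were rescaled by the median of ratios the members split 6 higher and 5 lower, and after quantile normalisation 2 and 8. COL4A1 and COL4A2 kept their direction in both.

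PDCD10 knockdown raised COL17A1 and lowered COL4A1, COL4A2 and COL27A1, where 7.04% of genes were called (2.50% higher, 4.55% lower) and medians were -0.15 and -0.10. COL4A1 was at 104 and 177 TPM, below the controls at 287 to 324 (-1.18, limma adjusted p = 0.0213), and COL4A2 at 161 and 300, below 436 to 466 (-1.04, adjusted p = 0.0386). COL27A1 was at 13.3 and 24.1 TPM against 27.5 to 31.7 (-0.70, adjusted p = 0.0383). The guides differed: without D11 no member was called (limma, 9 genes in all, COL4A1 at -0.80 with adjusted p = 0.615), and without G1 12 were (2884 genes), with LAMB3 (1.11) and COL6A1 (0.86) among them. Leaving out each control in turn left 1 or 2 calls. LAMB3 was at 64.1 and 26.6 TPM for D11 and G1, with controls at 26.6 to 33.3. LAMA5, at 587 and 434 TPM against 370 to 504, LAMA4, at 211 and 204 against 250 to 286, and COL5A1, at 259 and 189 against 260 to 285, were not called.

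ITGB1BP1 and MESDC1 knockdowns called COL17A1 alone, where 7.70% (3.34% higher, 4.36% lower) and 0.552% (0.382% higher, 0.170% lower) of genes were called. Medians over members were -0.04 and 0.01, against -0.08 and -0.04 over all genes. COL4A1 was at 189 and 180 TPM with ITGB1BP1 guides and 167 and 129 with MESDC1 guides, all below the control minimum of 287, without a call (-0.74, limma adjusted p = 0.12, and -1.07, adjusted p = 0.11). COL4A2 was at 268 and 270 TPM and at 267 and 218, also below every control without a call (-0.75, adjusted p = 0.12, and -0.91, adjusted p = 0.22). So all 8 libraries of the 4 knockdowns had less of both type IV chains than any control, and the test called the CCM2 and PDCD10 knockdowns. Without MESDC1 guide B3 the COL17A1 call was lost (1.26, adjusted p = 0.0619).

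In the other direction, COL4A1 was at 554 and 424 TPM with MAP3K3 guides and 456 and 461 with KLF2 guides, above every control, and COL4A2 at 725 and 635 and at 607 and 639. LAMA4 was at 357 and 334 TPM with MAP3K3 guides against 250 to 286, and COL5A1 at 384 and 346 against 260 to 285. None was called by limma (COL4A1 0.65, adjusted p = 0.65, with MAP3K3, and 0.57, adjusted p = 1, with KLF2). MAP2K5 guides differed, with COL4A1 at 288 for A11, whose target was not reduced, and 523 for B5. The counts of members called were 0 with MAP3K3 (5 at an unadjusted p under 0.05, 0.0566% of genes called, 0.0495% lower), MAP2K5 (2, 0%), MEF2A (3, 0.00707%), KLF2 (1, 0.0141%), CDH5 (1, 0.0141%) and NFAT5 (0, 0.00707%). The MAP2K5 and NFAT5 counts each mix 1 library with a reduced target and 1 without (guides A11 and D7). COL4A1 was at 342 and 348 TPM with MEF2A, 272 and 285 with CDH5 and 338 and 298 with NFAT5 guides. COL1A1, the type I chain, was at most 1.47 TPM, in a control library, and its log2 differences lay between -0.32 and 0.09 in all 10 knockdowns.

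**Figure D5:**
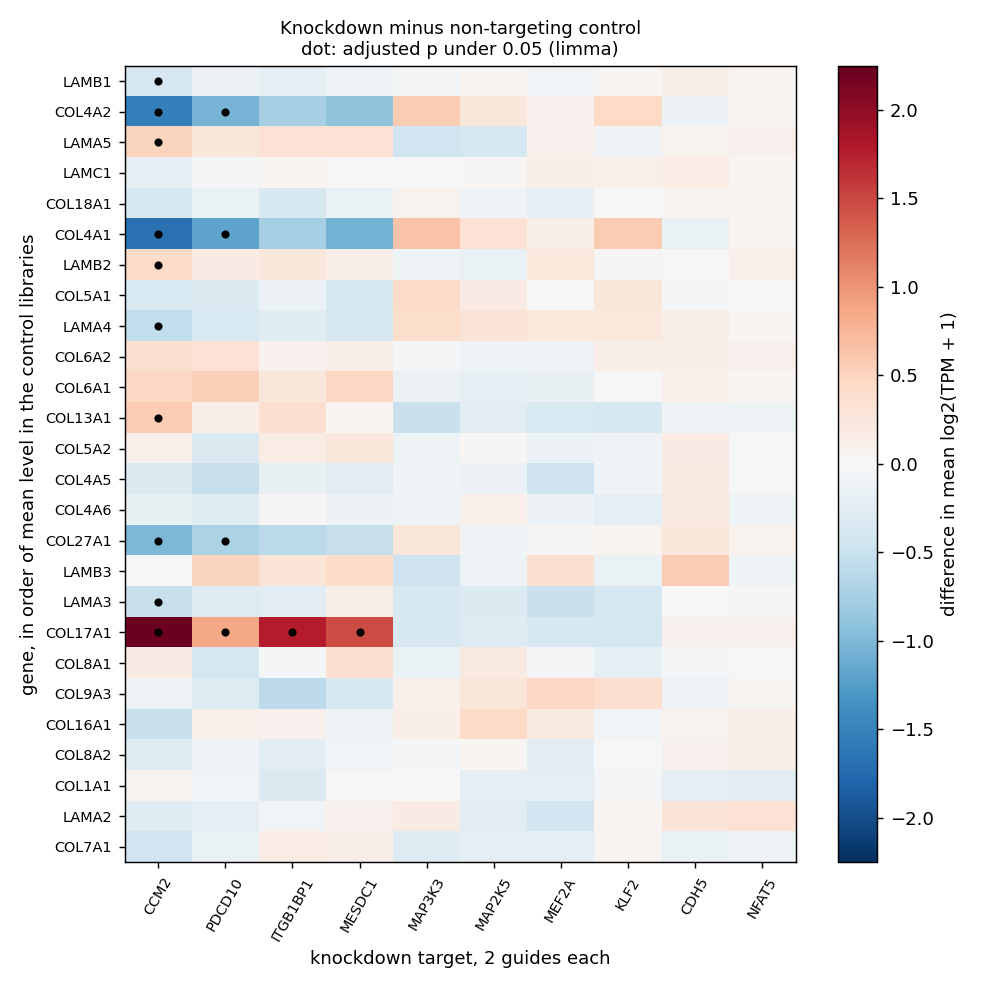
Heat map of the log2(TPM + 1) difference from the 4 non-targeting controls for the 26 members (rows) in the 10 knockdowns (columns), with a dot where the test called the member. Dots for COL17A1 appear under CCM2, PDCD10, ITGB1BP1 and MESDC1, those for COL4A1 and COL4A2 under CCM2 and PDCD10, and the 6 other columns have none.

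Over all genes, 5.66% were called higher and 8.37% lower with CCM2 guides, 2.50% and 4.55% with PDCD10, 3.34% and 4.36% with ITGB1BP1 and 0.382% and 0.170% with MESDC1 guides. Of the 25 biosynthesis genes tested in the CRISPRi block, CCM2 knockdown raised 3 and lowered 4 and PDCD10 knockdown lowered 5. P4HA2, a prolyl hydroxylase subunit, was at 190 TPM with CCM2 guides against 92.0, and SERPINH1, the collagen chaperone HSP47, at 355 with PDCD10 guides against 575 (-0.73). Of 12 partners, CCM2 knockdown raised 1 and lowered 3, with fibronectin (FN1) at 444 TPM against 680 (-0.64). Of 13 receptors, CCM2 knockdown raised 3 and lowered 3, ITGB1BP1 knockdown raised 4, PDCD10 knockdown raised 2 and lowered 1, and MESDC1 knockdown raised 1, ITGB4. ITGA3, an integrin chain that binds laminin, was at 432 TPM with CCM2, 412 with PDCD10 and 318 with ITGB1BP1 guides against 179. The epithelial list summed to 1214 to 1399 TPM in the controls, 5408 and 6510 with CCM2, 6824 and 2636 with PDCD10, 2942 and 3271 with ITGB1BP1, 2658 and 2496 with MESDC1 and 883 and 976 with MAP3K3 guides. It was led by KRT18, while EPCAM and CDH1 were at no more than 0.590 and 0.736 TPM in any CRISPRi library. Of the 6 epithelial markers tested, CCM2 knockdown raised 2 and lowered 1, and PDCD10 and ITGB1BP1 knockdowns each raised 2. MESDC1 and MAP3K3 knockdowns called 0 of them. The fibroblast and mural list summed to 177 to 283 TPM in the controls and 140 and 151 with CCM2 guides, with 0 of its 5 tested markers called. Their part in these results was not tested.

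Ratios between chains that can share a trimer were read within each library. Over the 28 parental libraries the ratio of COL4A2 to COL4A1 was 1.06 to 1.43 (median 1.19), across a range of COL4A1 from 9.52 to 420 TPM, and over the 24 CRISPRi libraries it was 1.31 to 1.69 (median 1.48). The ratio of LAMB1 to LAMC1 was 1.15 to 1.75 (median 1.48) and 1.11 to 1.48 (median 1.37). COL4A5 to COL4A6 was 0.863 to 1.59 (median 1.08) and 1.22 to 2.32 (median 1.91). COL6A2 to COL6A1 was 1.04 to 1.59 (median 1.42) in the 14 TeloHAEC parental libraries and 0.875 to 1.42 (median 1.25) in the CRISPRi libraries, while in Eahy926 COL6A2 was near 0. The blocks were quantified separately, so ratios are not compared between them.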

How the data were processed

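The authors deposited 1 table of TPM for 52 libraries, per the file headers. Per the submitters' processing notes Bowtie2 and kallisto were used with hg19, no versions being given in the sources used here. Per the labels' protocols, libraries were poly-A selected. Values fall into 2 blocks that list different symbols: 27311 in 28 parental and 35587 in 24 CRISPRi libraries, 19608 in both. TPM keep no depth, so no count test was used.

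TPM were turned into log2(TPM + 1) after a filter of at least 1 TPM in 3 parental or 2 CRISPRi libraries, which left 13542 and 14143. limma 3.58.1 in R 4.3.3 gave 1 fit per block (trend, empirical Bayes, two-sided), with 24 parental libraries in 8 groups and 24 CRISPRi libraries in 11. Benjamini-Hochberg adjustment ran over all genes of a block in each comparison, with calls under 0.05. Figures used matplotlib 3.10.9, and the fit was tested on simulated data. Values are mean ± SD.

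Members and lists were chosen with earlier results of these data known, and 1 symbol that fits the name rule is not reported here. Genes named with values were 11 basement membrane and marker chains (COL4A1, COL4A2, COL18A1, COL8A1, LAMA4, LAMA5, LAMB1, LAMB2, LAMC1, COL5A1, COL1A1), the 8 members (4 in a knockdown) with the largest called difference at 5 TPM or more, head-to-head pairs, up to 3 called genes a list, and the knockdown targets. Other named genes, such as LAMA3, COL13A1 and COL27A1 where not among the largest, and ITGB4 by library, were chosen after their values were seen. Alternatives were a pseudocount of 0.1, no filter, median-of-ratios scaling, quantile normalisation, only the groups compared, a replicate block, all 5 controls of a line, and leaving out each library.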

Additional observations from a re-analysis of the deposited data

Results flagged for a closer look

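Responses to IL-1β that differed between the lines, as the TeloHAEC log2 change minus the Eahy926 log2 change tested with limma, were found for 11 members. The difference was 1.77 for COL8A1, 1.115 for COL16A1, 0.7754 for COL6A2, 0.7746 for LAMB3, 0.66 for COL4A1, 0.54 for COL27A1, 0.34 for COL4A2 and 0.29 for COL13A1. It was -0.60 for COL4A6, -1.045 for LAMA3 and -1.11 for COL17A1. COL16A1 was low throughout, with means of 0.367 TPM in TeloHAEC control and 1.77 with IL-1β, against 3.07 and 2.83 in Eahy926. COL6A2 was near 0 TPM in Eahy926, so its value is the TeloHAEC change against a floor, and with a pseudocount of 0.1 it was not called (0.65, limma adjusted p = 0.365). The calls of COL13A1, COL27A1, COL4A1, COL4A2 and COL4A6 were lost with all 5 controls of each line (COL4A6 -0.46, limma adjusted p = 0.269). In all, 22.5% of all genes had a called difference in this comparison.

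Responses to TNF-α differed for 6 members: 1.165 for COL9A3, 0.93 for COL5A1, 0.89 for COL6A2, 0.47 for COL6A1, -0.29 for LAMB3 and -0.72 for COL17A1, where 10.3% of all genes were called. COL9A3 was below 1 TPM in the fitted TeloHAEC libraries, and with a pseudocount of 0.1 neither it (1.098, limma adjusted p = 0.171) nor COL6A2 (0.38, adjusted p = 0.717) was called.

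Among the 4 non-targeting controls, 1 of 26 members had a library far from the others: COL5A2, a chain of type V collagen, was at 77.9 TPM in its lowest library and at 88.9 to 89.5 TPM in the others. Chance flags about 1 in 20 such groups.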

How the results depend on the processing

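Of 92 called differences of single members, 48 kept their direction and call under every alternative run and 67 when any library was left out. Counts of members called ranged as follows when 1 library was left out: 19 to 22 between the lines (19 with all libraries), 14 in each case for IL-1β in TeloHAEC (14), 7 to 8 for TNF-α (9), 5 to 6 for IL-1β against TNF-α (7), 2 for VEGF-free medium (2), 5 to 10 for TNF-α in Eahy926 (8), 0 for IL-1β and VEGF there (0), 9 to 14 and 5 to 11 for the line differences in the IL-1β (11) and TNF-α (6) responses. For knockdowns they were 1 to 9 for CCM2 (10), 0 to 12 for PDCD10 (4), 1 for ITGB1BP1 (1), 0 to 1 for MESDC1 (1), 0 to 1 for MAP2K5 (0), 0 to 2 for MEF2A (0) and 0 for MAP3K3, KLF2, CDH5 and NFAT5. With 1 guide left, that library is assumed to vary like the other groups. With all 5 controls of each line, IL-1β against TNF-α gave 2, VEGF-free medium 4, TNF-α in Eahy926 5 and the IL-1β line difference 6. Median-of-ratios scaling gave 6 for VEGF-free medium. Fitting only the groups compared gave 17 for IL-1β and 13 for TNF-α in TeloHAEC, 6 for VEGF-free medium and 2 for TNF-α in Eahy926. For knockdowns it gave 0 for PDCD10, 6 for ITGB1BP1, 3 for MESDC1, 1 for MAP3K3 and 2 for KLF2. Calls over all genes were not counted for this alternative. No filter gave 1 for PDCD10. With all 5 controls 2 called differences turned: COL6A1 with TNF-α in Eahy926 (-0.11) and COL13A1 in the IL-1β line difference (-0.60). The cause was not tested. Median-of-ratios scaling moved the median of all genes by 0.10 for the IL-1β line difference (10 members higher and 3 lower) and for PDCD10 (2 and 1). Under it the called genes that were higher numbered 710 of 1643 for IL-1β against TNF-α, 902 of 1784 for VEGF-free medium, 1393 of 2823 for TNF-α in Eahy926, 619 of 1387 for the TNF-α line difference, 1087 of 1766 for CCM2, 595 of 962 for PDCD10 and 650 of 1031 for ITGB1BP1.

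Replicate numbers did not pair the libraries: the correlation between residuals of same-numbered libraries averaged -0.00078 for TeloHAEC and 0.0125 for Eahy926, and none of 18 pairs of either line passed 0.1. With a replicate block 75 of 76 called differences stayed called, LAMC1 with TNF-α in Eahy926 being lost (0.30, limma adjusted p = 0.0591). Knockdown libraries carry no shared numbers.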
